A study of Mus musculus with 6 samples.

Results

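The Ifitm family was followed in 4 of the 20394 genes counted in single cells from arthritic mouse synovium: Ifitm1, Ifitm2, Ifitm3 and Ifitm6. The 4 genes were picked by symbol after their levels over the cell classes of these data had been seen, so those levels, as counts per 1000000 UMIs (CPM) and as shares of cells with a UMI, are given as a description and carry no test. A UMI is the molecular tag that marks 1 captured transcript. CD45+ (leukocyte) cells were sorted from the synovium of C57BL/6 mice with antigen-induced arthritis. All mice were immunized with 10 μg methylated bovine serum albumin in complete Freund's adjuvant and challenged in the knee with 100 μg of the same antigen at day 21, and cells were taken 3 days later. The PBS group (2 samples) received vehicle and the PEPITEM group (4 samples) received 300 μg of the peptide PEPITEM by intraperitoneal injection. The 32953 cells of the count matrix carry barcode suffixes from 1 to 6, here called libraries. Neither the labels nor the files used here tie a suffix to a sample, so treatment was not compared, and the 6 libraries serve only to show how far each level varied.

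Ifitm genes encode small membrane proteins that sit in the plasma membrane and in endosomes, where they hinder the fusion of enveloped viruses with the host cell. Many cell types raise their transcription in answer to interferons. Ifitm3 is the best studied antiviral member, Ifitm1 and Ifitm2 are its close relatives, and the function of mouse Ifitm6 is less well described.

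The 4 genes lie within 63088 bases of chromosome 7 (GRCm38, the build that mm10 names, GENCODE vM21), in the order Ifitm2, Ifitm1, Ifitm3 and Ifitm6. Ifitm2 spans 140954837 to 140955987 on the minus strand, Ifitm1 spans 140967221 to 140969825 on the plus strand, Ifitm3 spans 141009586 to 141010770 on the minus strand and Ifitm6 spans 141015699 to 141017924 on the minus strand. All are protein-coding, with 2 exons in the single annotated transcript of Ifitm2 and of Ifitm3 and 2 to 3 exons in the 3 transcripts each of Ifitm1 and of Ifitm6. The 120 bases before each start site are shown because interferon-regulated promoters often hold the interferon-stimulated response element. They come from RefSeq (GRCm38.p6) and read 5′ to 3′ on the gene's own strand from the RefSeq start, which lies inside the GENCODE span of each gene, with capitals for the response element core, which is 2 copies of GAAA with any 2 bases between them, and for the TATAAA box.
Ifitm1, chr7:140967956-140968075, plus strand: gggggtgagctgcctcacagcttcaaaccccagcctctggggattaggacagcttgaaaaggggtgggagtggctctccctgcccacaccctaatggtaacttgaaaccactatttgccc
Ifitm2, chr7:140955962-140956081, minus strand: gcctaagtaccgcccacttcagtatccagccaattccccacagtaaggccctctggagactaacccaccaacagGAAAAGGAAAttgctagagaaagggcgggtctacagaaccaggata
Ifitm3, chr7:141010745-141010864, minus strand: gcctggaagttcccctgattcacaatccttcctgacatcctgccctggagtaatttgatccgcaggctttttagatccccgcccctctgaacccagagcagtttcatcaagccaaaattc
Ifitm3, just after the start, chr7:141010713-141010742, minus strand: GAAAAGGAAActtctgaGAAACCGAAActg
Ifitm6, chr7:141016893-141017012, minus strand: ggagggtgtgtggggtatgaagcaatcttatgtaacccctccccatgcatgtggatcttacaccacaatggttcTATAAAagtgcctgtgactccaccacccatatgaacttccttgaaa

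The search covered 300 bases, from 250 before to 50 after the start, on both strands. Ifitm2 held 1 match of the response element core, at position -46, and Ifitm3 held 2, at positions 3 and 20 after the start. Ifitm1 and Ifitm6 held none in this window. Only the RefSeq start was searched, and in Ifitm1 and Ifitm6 it lay further inside the GENCODE span than in Ifitm2 and Ifitm3. The outer GENCODE starts of Ifitm1 and Ifitm6 were not covered. Of 32544 mouse promoter windows 3.45% held the motif, and of 24 interferon-stimulated genes with such a window, it was in 13. The binding motif of STAT dimers, TTCNNNGAA, matched once in Ifitm3 at position 14, where it overlapped the second response element core, and once in Ifitm6 at position -10, and 8.33% of all windows held it. A TATAAA match stood at position -46 of Ifitm6 and another at position -175 of Ifitm2 on the other strand, and 13.6% of all windows held one on either strand. The core AGGAAG of ETS family factors, which include the myeloid factor PU.1, matched 3 times in Ifitm6, once in Ifitm1, once in Ifitm3 and not in Ifitm2, against 35.1% of windows with a match. The match of Ifitm6 at position -11 overlapped its STAT motif. These are letter matches only, and their link to the levels of the members was not tested.

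Near-identical sequence limits how well reads can be given to single members. Of all 30-base stretches in its GENCODE transcripts, Ifitm1 shared 12.3% with transcripts of other genes, Ifitm2 shared 56.1% and Ifitm3 shared 21.3%, while Ifitm6 shared none. In the last 300 bases of the transcripts, where a 3′ library places its reads, the shares were 12.0% for Ifitm1, 31.7% for Ifitm2 and 10.0% for Ifitm3. Much of the Ifitm2 overlap was with Gm45717, a gene model that overlaps Ifitm2 on the same strand and has no row in the count matrix. How the counting treated such reads is not given in the sources used here, so the levels of Ifitm1, Ifitm2 and Ifitm3 are less certain than those of Ifitm6.

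Cells were placed in classes by fixed marker lists with no Ifitm gene in them, and a class is called "-like" because its name rests on those markers. A cell joined the lineage with the highest share of markers detected, if at least 50% of the list had a UMI and the lead over the next lineage was at least 0.1. Of all cells 89.2% were placed and 3562 were not, 723 because no list was met and 2839 because the lead was too small. A further 2560 placed cells were near the cut, with a lead under 2 times the minimum. Of the 25 classes, 21 held at least 50 cells. The libraries held 2919 to 9345 cells with a median of 9923 to 14001 UMIs per cell, and 138 barcode sequences occurred in more than 1 library. Lyve1 reached 1370 CPM in resident macrophage-like cells and at most 41.6 CPM in any other class, and the B cell gene Ms4a1 reached 654 CPM in B cell-like cells and at most 29.5 CPM elsewhere. Among neutrophil-like cells, Cxcr2 reached 626 CPM in the mature and 233 CPM in the immature class, while Ly6g reached 284 and 753 CPM. Gates and Leiden clusters named from the same markers placed many cells differently, with 90.3% of immature and 65.2% of mature neutrophil-like cells, 46.2% of monocyte-like and 35.9% of macrophage-like cells in a cluster of the same name.

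Ifitm6 was highest in the neutrophil series before its last step. In immature neutrophil-like cells, which hold at least 10000 CPM of the secondary granule transcripts Ltf, Camp and Ngp, it reached 2727 CPM over 4423 cells. The 6 libraries stood at 2247, 2212, 1859, 2425, 2917 and 3103 CPM, each above the highest library of every other class. Cycling neutrophil-like cells followed with 1415 CPM (1012 to 1563 over libraries) and mature neutrophil-like cells with 637 CPM (309 to 830). Neither of these ranges overlapped that of the class above it, the only places in its order of 21 classes where neighbours were apart. Ifitm6 was at 455 CPM in monocyte-like cells (299 to 523), at 470 CPM in nonclassical monocyte-like cells (215 to 677) and at 255 CPM in cycling monocyte-like cells (147 to 307), ranges that overlapped each other.

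Ifitm6 was low in granulocyte precursor-like and in stem and progenitor-like cells. Granulocyte precursor-like cells, which carry Elane, Mpo and Prtn3 of the primary granules, held 114 CPM (69.0 to 185), or 68.8 CPM by Leiden cluster, and stem and progenitor-like cells held 19.1 CPM, with 3 libraries at 0 and the highest at 41.4. Only 2.09% of the 287 stem and progenitor-like cells had an Ifitm6 UMI (Wilson 95% interval 0.962 to 4.49%, counting error only), against 99.1% of immature neutrophil-like cells (98.8 to 99.4%). Among 125 type 2 innate lymphoid-like cells, at a median of 6929 UMIs, none had one, and 3 counts over these cells would be 2.4% of cells with a UMI. By Leiden cluster 131 cells took this name, 111 of them in the gated class, and they held 103 CPM of Ifitm6.

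Ifitm1 stood at the other end of the neutrophil series. Mature neutrophil-like cells held 1771 CPM over 5761 cells, with libraries at 1386, 912, 723, 2156, 2294 and 1773 CPM, and immature neutrophil-like cells held 214 CPM (103 to 279). The ranges of the mature and immature classes did not overlap. Fewer positive cells and fewer transcripts per cell both enter a pooled CPM, and 75.9% of mature against 30.6% of immature cells had an Ifitm1 UMI. Cycling neutrophil-like cells at 137 CPM (69.0 to 167) and granulocyte precursor-like cells at 98.8 CPM (44.8 to 121) held still less, with ranges that overlapped the immature one. Stem and progenitor-like cells held 634 CPM (475 to 915), and 88.2% of them had an Ifitm1 UMI. The progenitor range lay wholly above those of the granulocyte precursor-like and immature neutrophil-like cells. Of these 287 cells, 285 lay in a cluster of 599 cells whose leading genes include Hbb-bs, Hba-a1 and Car1 of the erythroid marker list. Whether they stand at the start of the neutrophil series was not tested.

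Basophil-like cells, with 4644 CPM of the basophil protease Mcpt8, had the highest Ifitm1 level of any class. It reached 5577 CPM over 41 cells (Poisson interval of the count 5314 to 5849), and 97.6% of the cells had a UMI (Wilson 87.4 to 99.6%). Both intervals cover counting error only and leave out the spread between libraries. Libraries held 2 to 16 of these cells and stood at 9815, 3259, 9655, 6951, 8278 and 5721 CPM, every one of them above the highest mature neutrophil-like library. Ifitm2 was at 1465 CPM in the basophil-like cells, Ifitm3 at 149 CPM and Ifitm6 at 79.4 CPM, the last from 1 positive cell (2.44%). Mast cell-like cells, which share many genes with basophils, held 349 CPM of Ifitm1 (0 to 611), or 199 CPM in those with a UMI of at most 1 of 8 neutrophil markers, and 12.6% of them had a UMI.

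Dendritic classes also held Ifitm1, with a wide spread. Type 2 dendritic-like cells (Cd209a, Mgl2) reached 1105 CPM over 306 cells, and libraries stood at 1184, 2264, 1727, 300, 874 and 636 CPM. The lowest of these overlapped the levels of monocyte-like cells at 187 CPM (96.4 to 412) and the highest lay near the top of the mature neutrophil-like range. Type 1 dendritic-like cells were at 623 CPM (62.5 to 1430), or 388 CPM without library 1, and migratory dendritic-like cells at 355 CPM (74.7 to 888). Ifitm6 was at 55.0 CPM in the type 2 class (0 to 88.7). It was at 50.4 CPM in the type 1 class, or 28.9 CPM without library 3, and at 42.3 CPM in the migratory class, or 5.14 CPM without library 5, which held 69 of its 77 UMIs.

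**Figure D1:**
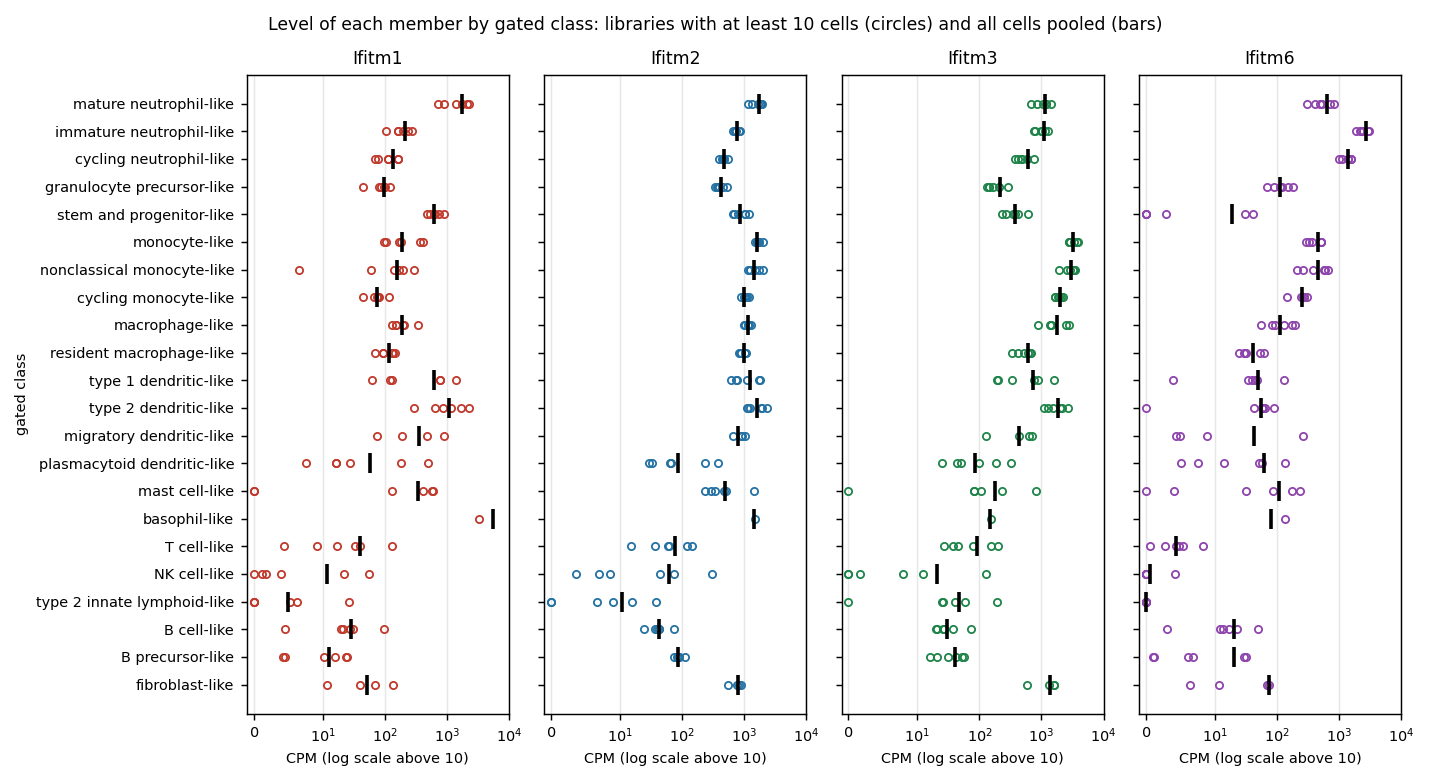
Level of each member in each gated class with at least 50 cells, and in basophil-like cells, in CPM on an axis that is logarithmic above 10. Circles are libraries with at least 10 cells of the class and bars are all cells pooled. Ifitm6 peaks in immature neutrophil-like cells (2727 CPM), Ifitm1 in basophil-like cells (5577 CPM) and then mature neutrophil-like cells (1771 CPM), and Ifitm3 in monocyte-like cells (3275 CPM).

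Within the neutrophil-like cells Ifitm6 and Ifitm1 ran in opposite directions over 5 bins. Non-cycling cells were binned by their summed Ltf, Camp and Ngp content, and from the highest to the lowest bin Cxcr2, a chemokine receptor of mature neutrophils, went from 162 to 679 CPM. In the 2742 cells with over 50000 CPM of granule transcripts Ifitm6 was at 3059 CPM (2361 to 3369 over libraries), and it then stood at 2058, 1222, 461 and 256 CPM in the bins at 10000 to 50000, at 1000 to 10000, under 1000 and at none. Ifitm1 went the other way, at 148, 345, 599, 1908 and 2692 CPM in the same bins. The first bin of Ifitm1 ranged from 76.1 to 190 CPM and the last from 1328 to 3345 CPM, so both ends were apart over the 6 libraries.

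Ifitm2 differed less over the same bins, at 647, 1026, 1361, 1778 and 2007 CPM, with the first bin at 583 to 725 CPM and the last at 1539 to 2181 CPM. Ifitm3 had no such order, at 999, 1248, 1267, 1121 and 1058 CPM, and its library ranges of 674 to 1168 CPM in the first bin and 581 to 1339 CPM in the last overlapped. Summed over 32 interferon-stimulated genes, the level in these bins was 979, 1971, 2449, 3263 and 3586 CPM, and its part in the member levels was not tested. Il1b, the gene of the inflammatory cytokine interleukin 1β, went from 646 to 7649 CPM.

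**Figure D2:**
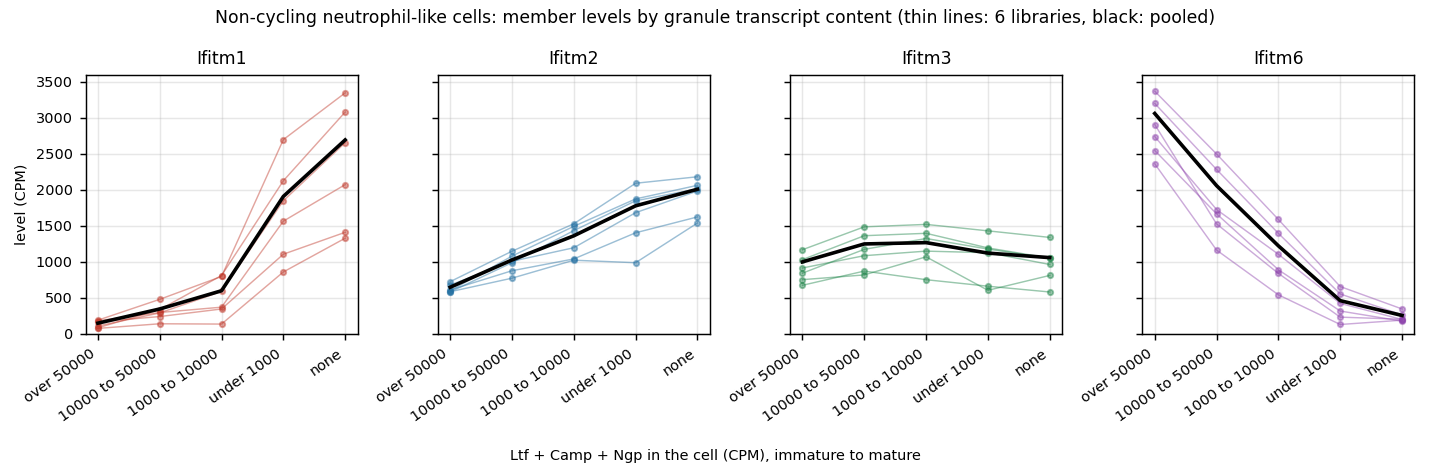
Level of each member (CPM) in non-cycling neutrophil-like cells binned by the summed Ltf, Camp and Ngp content of the cell, from immature (left) to mature (right). Thin lines are the 6 libraries and the black line is the pool. Ifitm6 goes from 3059 to 256 CPM and Ifitm1 from 148 to 2692 CPM, while Ifitm3 lies between 999 and 1267 CPM.

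As a ratio between the classes, Ifitm6 was 4.28-fold higher in immature than in mature neutrophil-like cells (3.74 to 6.02 over libraries). Ifitm1 was 8.28-fold higher in mature than in immature cells (4.69 to 13.3) and Ifitm2 was 2.23-fold higher (1.76 to 2.52). The immature over mature ratio of Ifitm3 was 0.944 (0.853 to 1.12), with 1 of 6 libraries above 1. Of the 4 members, Ifitm1 and Ifitm2 were at least 2-fold higher in mature cells with library ranges apart, as were 10.7% of all 6111 genes compared. Ifitm6 was called in the other direction, as were 5.47% of these genes. The members were chosen with these levels known, so nothing is read from the counts.

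The mature class was mixed, and this touched its Ifitm1 level. Its 3757 cells that also lay in mature neutrophil-like clusters held 2887 CPM of Ifitm1 (1360 to 3781 over libraries) and 373 CPM of Ifitm6. The 1483 cells in immature neutrophil-like clusters held 816 CPM of Ifitm1 and 1442 CPM of Ifitm6. The remaining 521 cells lay in other clusters, had a median of 18459 UMIs against 4392 in the 3757 cells, and carried 26.8% of the UMIs of the class, with 594 CPM of Ifitm1. Naming cells by Leiden cluster instead of gate gave 2847 CPM for Ifitm1 in mature cells and an Ifitm6 ratio of 6.85.

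Both transcripts were found in part of the single cells of the mature class, whose mixed parts were pooled here. Every cell was thinned to 2000 UMIs, which left out 109 shallower cells. The 3006 cells with no Ifitm6 UMI had an Ifitm1 UMI in 74.9% of cases and 2219 CPM of Ifitm1 over all their UMIs. The 2646 cells with one had an Ifitm1 UMI in 55.1% of cases and 1341 CPM. The cells with an Ifitm6 UMI were deeper, with a median of 5791 against 4461 UMIs, and all 4 members were found together in 20.1% of thinned mature cells.

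Ifitm3 was the leading member in monocytes. Monocyte-like cells (Ccr2, Ly6c2) held 3275 CPM over 2589 cells, with libraries at 3900, 2787, 2737, 2891, 3720 and 3317 CPM. Of their list markers, Ccr2 and Ms4a6c were highest here among classes of at least 50 cells. F13a1 and Csf1r were higher in resident macrophage-like, Fn1 in fibroblast-like and Ly6c2 in cycling monocyte-like cells. The 204 monocyte-like cells without a Ly6c2 UMI held 1432 CPM of Ifitm3 (790 to 1967), against 3403 CPM (2829 to 4108) in those with one. Nonclassical monocyte-like cells (Ace, Cd300e) held 2986 CPM (1887 to 3444), a range that overlapped that of monocyte-like cells. Cycling monocyte-like cells held 1991 CPM (1649 to 2223), below every library of monocyte-like cells. Macrophage-like cells held 1749 CPM (866 to 2807) and resident macrophage-like cells, marked by Lyve1, Cd163 and Vsig4, held 601 CPM (334 to 686). The macrophage range overlapped that of cycling monocyte-like cells and lay wholly above that of the resident cells, with the lowest macrophage library at 866 and the highest resident library at 686 CPM.

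Across the monocyte and macrophage classes the members differed. Ifitm6 was 455, 111 and 42.1 CPM in monocyte-like, macrophage-like and resident macrophage-like cells, and Ifitm2 was 1635, 1148 and 989 CPM. Ifitm1 was 187, 190 and 119 CPM, and by Leiden cluster it was 81.0, 41.9 and 246 CPM, so its order among these classes turned with the way cells were named. Ifitm6 by cluster was 519, 41.6 and 206 CPM, with resident above other macrophage-like cells. Ifitm2 by cluster was 1747, 870 and 984 CPM, also with resident above other macrophage-like cells, unlike by gate. Ifitm3 by cluster was 1025 CPM in macrophage-like and 617 CPM in resident macrophage-like cells, less than 2-fold apart. The macrophage-like cluster held 1226 cells. A cluster of 3092 cells led by Cxcl9, Cxcl10, Ccl8, Gbp2 and Arg1 took no name and is left out of these cluster values. By gate, Ifitm6 alone of the 4 was called higher in monocyte-like than in macrophage-like cells, where 1.56% of all genes were. Ifitm3 alone was called higher by gate in macrophage-like than in resident macrophage-like cells, where 2.87% of all genes were.

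The Ifitm3 level of macrophage-like cells differed more between libraries than that of monocyte-like cells. Libraries 1 to 6 stood at 2807, 866, 1446, 1436, 2467 and 1353 CPM. The summed level of the 32 interferon-stimulated genes in the same cells was 9487, 2558, 4280, 4494, 5581 and 3841 CPM, so the highest and the lowest library were the same in both. Cxcl9, a chemokine induced by interferon-γ, was itself 1 of the 10 markers of the macrophage list. Macrophage-like cells with a Cxcl9 UMI held 1937 CPM of Ifitm3 and 275 CPM of Ifitm1, against 1700 and 168 CPM in those without one. The library ranges of that split, 1201 to 2778 CPM over 5 libraries and 849 to 2812 CPM over 6 for Ifitm3, overlapped.

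Ifitm2 was the broadest member. It was highest in mature neutrophil-like cells at 1727 CPM (1172 to 1932), monocyte-like cells at 1635 CPM (1477 to 1989) and type 2 dendritic-like cells at 1628 CPM (1111 to 2375), which do not differ beyond their spread. Of the 21 classes 15 stood at 417 CPM or more, down to granulocyte precursor-like cells (340 to 526). The next class, B precursor-like cells, was at 87.4 CPM (73.6 to 112), 4.78-fold lower and with its range apart. At full depth 90.8 to 99.6% of cells had an Ifitm2 UMI in every neutrophil, monocyte, macrophage, conventional dendritic and progenitor class.

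Lymphoid cells held little of any member by gate. B cell-like cells were at 28.6, 42.7, 29.4 and 20.1 CPM of Ifitm1, Ifitm2, Ifitm3 and Ifitm6, T cell-like cells at 40.3, 77.1, 92.2 and 4.43 CPM, and NK cell-like cells at 11.7, 62.0, 20.6 and 0.614 CPM. Levels of Ifitm2 and Ifitm3 by Leiden cluster were 202 and 308 CPM in NK cell-like cells and 197 and 258 CPM in T cell-like cells. They were 15.8 and 12.0 CPM in B cell-like cells. Ifitm6 was 129 CPM in NK cell-like cells by cluster. Plasmacytoid dendritic-like cells were at 57.6, 84.4, 85.8 and 62.0 CPM by gate, with 195 and 285 CPM of Ifitm2 and Ifitm3 by cluster. Their Ifitm1 level ran from 7.53 to 492 CPM over libraries and was 28.9 CPM without library 1, and their Ifitm6 level ran from 5.07 to 136 CPM and was 35.02 CPM without library 2. These values stood beside a summed level of interferon-stimulated genes of 5826 CPM (5340 to 6662). It was the highest pooled value of any class, with a range that overlapped that of macrophage-like cells (2558 to 9487). Bst2 at 2692 CPM and Ly6e at 1525 CPM were part of that sum, with Isg15 at 34.3 CPM. Of the 32 genes 5 were highest in plasmacytoid dendritic-like cells, Bst2 and Ly6e among them. In B cell-like cells the share of cells with a UMI was 3.93% for Ifitm1, 8.84% for Ifitm2, 6.88% for Ifitm3 and 2.12% for Ifitm6 at a median of 5492 UMIs, and mature neutrophil-like cells, at a median of 5012 UMIs, had 75.9, 96.8, 90.6 and 62.6%. Values near the lymphoid shares are not read as expression.

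B precursor-like cells held 87.4 CPM of Ifitm2, and their library range of 73.6 to 112 CPM just overlapped that of B cell-like cells, 24.7 to 74.0 CPM. Of the 4 members Ifitm2, Ifitm3 and Ifitm6 were called higher in monocyte-like than in B cell-like cells, as were 17.1% of all genes. Among T cell-like cells, those with a Cd4 UMI held 216 CPM of Ifitm3, found in 19.4% of 273 cells, against 50.9 CPM in 5.61% of the 784 without one. Their summed level of 8 neutrophil markers was also higher, at 180 against 23.5 CPM. So was that of the 32 interferon-stimulated genes, at 3669 against 1946 CPM. The part of either in the difference was not tested. The library ranges of the split, 57.3 to 387 and 0 to 117 CPM of Ifitm3, overlapped.

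Shares at different depths are not comparable, so each cell was also thinned to 2000 UMIs. Ifitm6 was then found in 96.9% of immature, 46.8% of mature and 49.9% of monocyte-like cells and in 1.15% of B cell-like cells. Ifitm1 was found in 65.7% of mature and 15.5% of immature neutrophil-like cells, 92.5% of basophil-like and 52.4% of stem and progenitor-like cells, and in 1.87% of B cell-like cells. Ifitm3 was found in 94.6% of monocyte-like, 77.3% of macrophage-like, 44.8% of resident macrophage-like and 3.32% of B cell-like cells. For Ifitm2 the shares were 90.4% in mature neutrophil-like, 88.1% in monocyte-like and 4.31% in B cell-like cells.

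**Figure D3:**
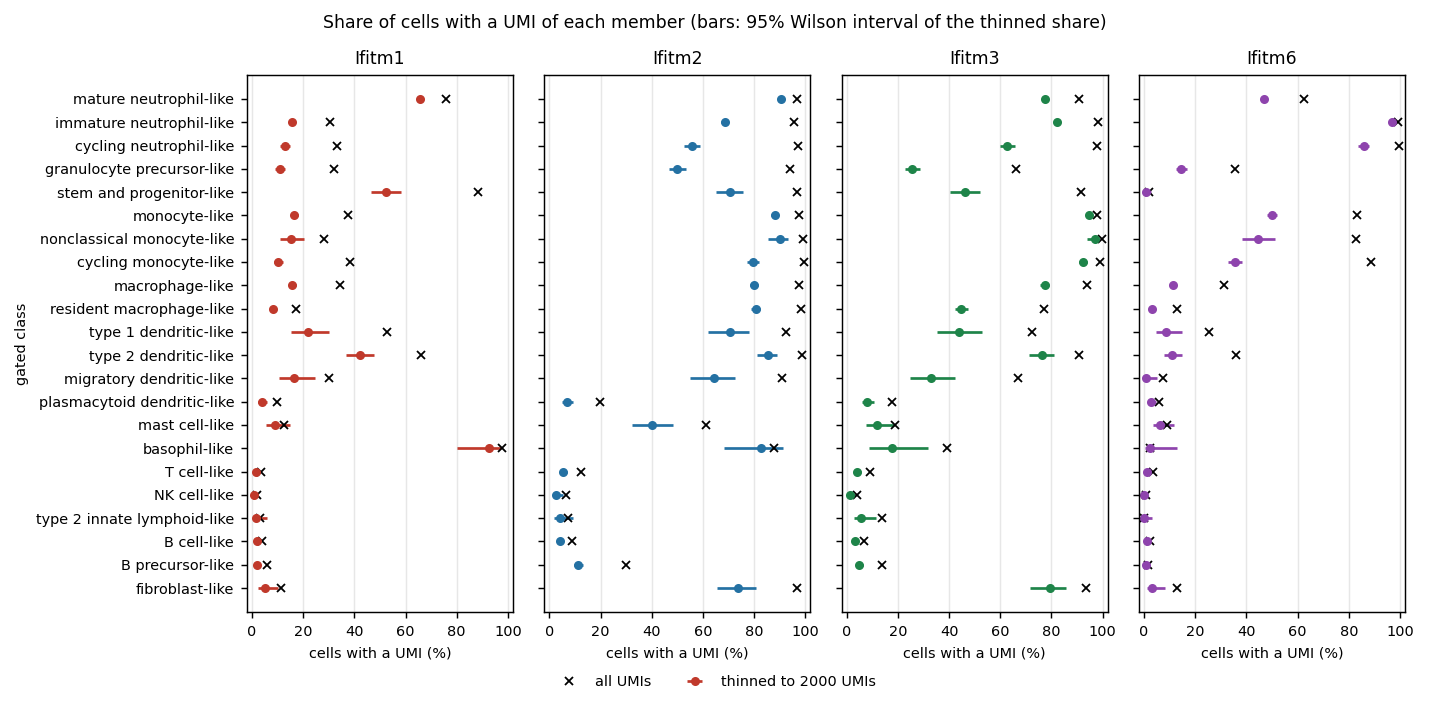
Share of cells with a UMI of each member in each class, with all UMIs (crosses) and with every cell thinned to 2000 UMIs (points, with 95% Wilson intervals that cover counting error only). Ifitm6 is found in 96.9% of thinned immature neutrophil-like cells, and T, NK, innate lymphoid, B and B precursor classes reach at most 11.1% for any member after thinning.

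Fibroblast-like cells, a small residue of 124 cells in a CD45+ sort, held 1349 CPM of Ifitm3 (584 to 1579 over 4 libraries) and 792 CPM of Ifitm2 (555 to 883). They held 51.7 CPM of Ifitm1 and 76.0 CPM of Ifitm6, or 5.69 and 10.2 CPM with a UMI of at most 1 of 8 neutrophil markers. The Ifitm3 range overlapped that of macrophage-like cells. The 3562 unplaced cells held all members at intermediate levels, 362, 965, 1201 and 529 CPM for Ifitm1, Ifitm2, Ifitm3 and Ifitm6, at a median of 23004 UMIs.

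Myeloid classes with overlapping summed levels of the 4 genes differed in which member gave them. The sum was 5552 CPM in monocyte-like cells (5059 to 6597), 5279 CPM in mature neutrophil-like cells (3053 to 6383) and 4795 CPM in immature neutrophil-like cells (3406 to 5316). Ifitm6 gave 56.9% of these UMIs in immature neutrophil-like cells (52.0 to 60.8% over libraries) and 12.1% in mature ones (8.86 to 14.9%). Ifitm3 gave 59.0% in monocyte-like cells (53.1 to 62.0%) and 54.7% in macrophage-like cells (39.6 to 66.7%). In resident macrophage-like cells Ifitm2 led with 56.5% (53.5 to 66.4%), and in basophil-like cells Ifitm1 made up 76.7%. A 3′ count gives 1 UMI per captured molecule whatever the transcript length, but shared sequence may shift these shares between Ifitm1, Ifitm2 and Ifitm3.

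**Figure D4:**
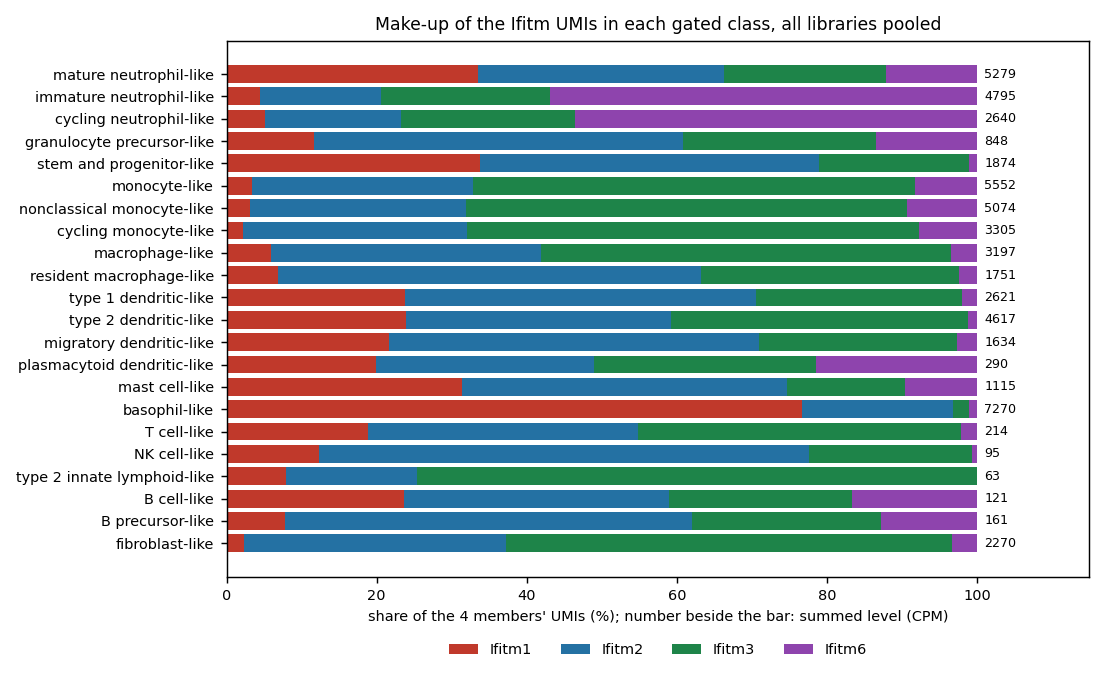
Share of the UMIs of the 4 members that each member gave in each class, all libraries pooled, with the summed level (CPM) beside each bar. Ifitm6 gives 56.9% in immature neutrophil-like cells, Ifitm3 gives 59.0% in monocyte-like cells, and Ifitm1 gives 76.7% in basophil-like cells. Bars of the T, NK, innate lymphoid, B and B precursor classes rest on summed levels of 62.7 to 214 CPM.

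Neutrophil transcripts were present in cells of other classes, and macrophage-like cells with few of them held less Ifitm1 and Ifitm6. In macrophage-like cells the 8 neutrophil markers summed to 1437 CPM (869 to 2346 over libraries), with none of the 8 at 0. Library 2 had the highest sum, with 196 CPM of Ifitm1 and 133 CPM of Ifitm6. Ifitm1 was highest in library 5 (343 CPM) and Ifitm6 in library 6 (193 CPM). The part of neutrophil RNA in these levels was not tested. The 1425 of 2698 cells with a UMI of at most 1 of these markers held 25.6 CPM of Ifitm1 against 190 in the whole class, and 25.5 CPM of Ifitm6 against 111. In the same cells Ifitm2 was 1009 against 1148 CPM and Ifitm3 1447 against 1749 CPM. Resident macrophage-like cells gave 21.4 against 119 CPM for Ifitm1 and 7.59 against 42.1 CPM for Ifitm6.

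In the 4 further classes given here Ifitm6 was lower in such cells, though little so in type 2 dendritic-like cells (52.1 against 55.0 CPM). Ifitm1 had no common direction. Among the other classes compared this way, Ifitm6 failed to be lower only in NK cell-like cells (0.637 against 0.614 CPM). It was 4.78 against 62.0 CPM in plasmacytoid dendritic-like, 7.94 against 107 CPM in mast cell-like and 3.64 against 42.3 CPM in migratory dendritic-like cells. Ifitm1 was 301 CPM and Ifitm6 270 CPM in the 714 monocyte-like cells with at most 1 marker, against 187 and 455 CPM in the class. Ifitm6 was found in 62.0% of those cells and stood at 168 CPM in the 209 cells with no marker, where Ifitm1 was 123 CPM. The share of monocyte-like cells with an Ifitm1 UMI was 37.5% in the class and 36.7% in the cells with at most 1 marker. In the 236 such stem and progenitor-like cells Ifitm1 was 587 against 634 CPM and Ifitm6 0.83 against 19.1 CPM. Ifitm1 was 6673 CPM in the 30 such basophil-like cells, in which Ifitm6 was not counted. In type 2 dendritic-like cells Ifitm1 was 1163 CPM in the 254 such cells, though the markers still summed to 707 CPM there, and 287 CPM in the 39 cells with no marker. The part of neutrophil RNA in the dendritic level was not tested.

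**Figure D5:**
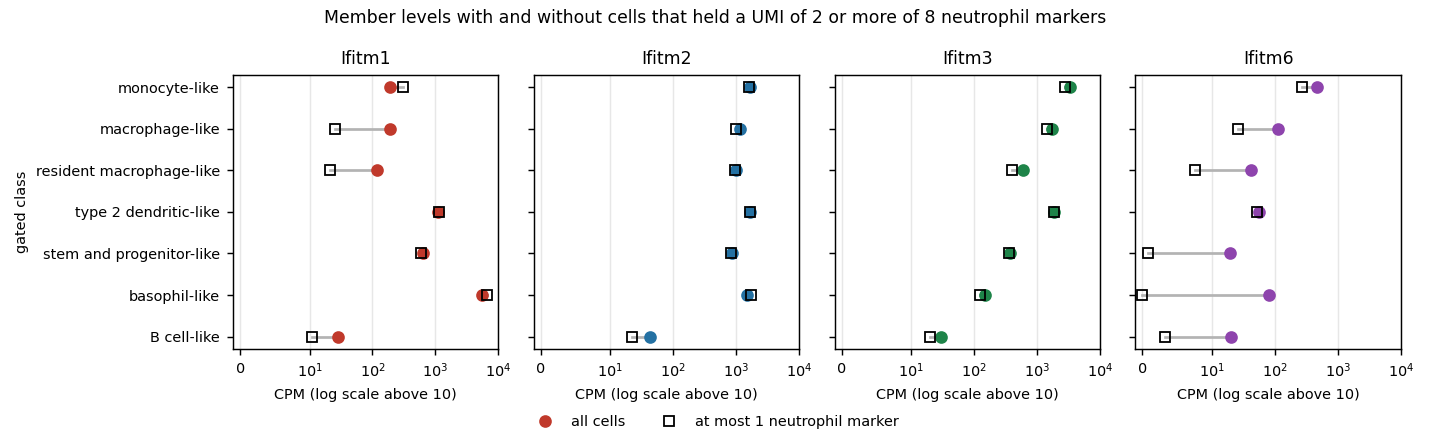
Level of each member (CPM, logarithmic above 10) in 7 classes, for all cells (filled) and for cells with a UMI of at most 1 of 8 neutrophil markers (open squares). In macrophage-like cells Ifitm1 goes from 190 to 25.6 CPM and Ifitm6 from 111 to 25.5 CPM, while Ifitm3 goes from 1749 to 1447 CPM.

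The wider interferon response was spread over several classes. Of 32 interferon-stimulated genes of a fixed list, 10 were highest in macrophage-like cells, among them Isg15 and Irf7, and 7 in mature neutrophil-like cells, where Ifitm1 and Ifitm2 peak among classes of at least 50 cells. Eif2ak2 and Ifi27l2a were highest in monocyte-like cells, as was Ifitm3, and none was highest in immature neutrophil-like cells. Some places were near ties, with Rsad2 at 145 CPM in macrophage-like and 142 CPM in mature neutrophil-like cells. The share of all genes that peak in each class was not computed, so nothing is read from these counts. Ifi27l2a was the most abundant of the list in monocyte-like cells at 1458 CPM (1086 to 1989), followed by Ly6e at 1217 CPM (890 to 1410) and Isg15, the ubiquitin-like modifier, at 222 CPM (109 to 789). In macrophage-like cells the same 3 led, at 1249, 1191 and 359 CPM, and in mature neutrophil-like cells Ifi27l2a was at 581, Slfn4 at 362 and Isg15 at 316 CPM.

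Between neutrophil stages 6 of the 29 listed genes tested were called higher in mature cells, namely Isg15, Rsad2, Oasl2, Rtp4, Isg20 and Trim30a, and 0 in immature cells, against 10.7% and 5.47% of all genes. Between monocyte-like and macrophage-like cells 0 of 30 were called higher in the former, against 1.56% of all genes, and 3 of 30 (Oas1a, Bst2 and Ly6e) were called higher in macrophage-like than in resident macrophage-like cells, against 2.87%. Against B cell-like cells 23 of 30 were called higher in monocyte-like cells, where 17.1% of all genes were. Over the 21 classes the median Pearson correlation of the list with a member, on log2(CPM + 1), was 0.32 for Ifitm1, 0.43 for Ifitm2, 0.52 for Ifitm3 and 0.27 for Ifitm6, and the median over all 12335 genes was -0.20, -0.16, -0.19 and -0.26. These correlations are across cell classes that share libraries and are given as a description.

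Receptors for interferon were measured in the same classes. Ifnar1 was at 78.7 CPM in mature neutrophil-like, 78.4 CPM in monocyte-like and 122 CPM in macrophage-like cells, and Ifngr1 at 175, 295 and 221 CPM. Ifnlr1, a subunit of the receptor for interferon-λ, was highest in immature neutrophil-like cells at 17.8 CPM. Zmpste24, a membrane protease linked to the antiviral action of Ifitm proteins, was at 205 CPM in immature and 9.37 CPM in mature neutrophil-like cells. Cd9, a tetraspanin of the cell surface, was highest in mature neutrophil-like cells at 1306 CPM.

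Further family members were close to the limit of detection. Ifitm5, known from bone-forming cells, lies beside Ifitm2 and gave 801 UMIs in all, with 6.59 CPM at its highest in mast cell-like cells. Ifitm10, further along chromosome 7, gave 1653 UMIs and was highest in NK cell-like cells at 30.4 CPM. Ifitm7, on chromosome 16, gave 192 UMIs and Tmem233, a more distant relative, gave 29. Of the listed neighbours on chromosome 7, Rnh1 and Psmd13 were found widely, at 333 and 105 CPM in monocyte-like and 50.2 and 78.1 CPM in B cell-like cells, while Nlrp6 and Ano9 gave 39 and 27 UMIs in the whole matrix.

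The members resembled each other to different degrees over the 21 classes. Pearson correlations of log2(CPM + 1) were 0.91 for Ifitm2 with Ifitm3 and 0.84 for Ifitm1 with Ifitm2, and lowest for Ifitm1 with Ifitm6 at 0.58. Among 11747 genes with at least 10 CPM in 1 class, gate markers left out, the 5 most like Ifitm6 were F5, S100a9, Hp, S100a8 and Slpi, at correlations of 0.91 to 0.92. S100a8 and S100a9 encode the calprotectin subunits, Hp encodes haptoglobin, F5 coagulation factor V and Slpi a protease inhibitor. The 5 most like Ifitm1 were Il1bos, Il1b, Mybpc3, Snap23 and Flot1 (0.84 to 0.87), and Il1bos, an antisense transcript of Il1b, is uncertain here, since how strand was counted is not given in the sources used here. For Ifitm2 they were Snx10, Il1b, Rsu1, Tmem185b and Cdc42ep4 (0.89 to 0.91), and for Ifitm3 they included Cdc42ep4, App, Ltbr and Tnfaip2 (0.89 to 0.91).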

How the data were processed

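CD45+ synovial cells of 6 samples were profiled with a 3′ droplet kit. Per the labels and the study's methods, reads were aligned to mm10 with Cell Ranger (version 7). The methods also name ambient RNA correction with SoupX, doublet removal with DoubletFinder and filters in Seurat. The matrix holds as many cells as the study gives after quality control, and whether its counts were corrected for ambient RNA is not given in the sources used here. The deposited values are whole-number UMI counts, not normalized, in 1 matrix of 20394 genes and 32953 cells, with 47273569 to 123367661 UMIs per library. No further cell filter and no doublet caller was applied here.

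CPM is the UMIs of a gene per 1000000 UMIs of a class. Classes came from marker gates, and the alternative was Leiden clusters (scanpy 1.11.5). Library ranges use libraries with at least 10 cells of a class, and shares carry Wilson 95% intervals, which cover counting error only. A gene was called between 2 classes where pooled levels differed at least 2-fold and library ranges did not overlap, among genes with at least 10 CPM in 1 of them. The call step was run on simulated counts whose libraries differed only in depth and counting error. The correlation step was run on simulated class patterns. How calls near the 2-fold cut behave with the library spread of these data was not tested. The text names the members, the 5 genes most alike to each (1 of those for Ifitm3 is not reported here), the 3 most abundant interferon-stimulated genes per main class and the further family members, and any other gene was picked with its values in view. The members and lists were chosen with earlier results of these data known. No p-value was computed.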

Additional observations from a re-analysis of the deposited data

How the results depend on the processing

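Libraries carry no sample, so No paired analysis was possible because the barcode suffixes name no replicate. Leaving out 1 library at a time gave 1553 to 1925 CPM for Ifitm1 and 1641 to 1797 CPM for Ifitm2 in mature neutrophil-like cells, 3136 to 3380 CPM for Ifitm3 in monocyte-like cells and 2588 to 2828 CPM for Ifitm6 in immature neutrophil-like cells. The immature over mature ratios were then 0.113 to 0.131, 0.437 to 0.467, 0.933 to 0.952 and 4.17 to 4.53 for Ifitm1, Ifitm2, Ifitm3 and Ifitm6. In the same order of genes, the levels were 2847, 2057, 3380 and 2697 CPM by Leiden cluster, 1579, 1713, 3104 and 2336 CPM as the median over libraries, 2388, 1938, 3313 and 2771 CPM as the mean over cells, and 2059, 1851, 3385 and 2805 CPM without the deepest 5% of cells. With 1 more marker required they were 1715, 1703 and 3147 CPM for Ifitm1, Ifitm2 and Ifitm3. Alternatives chosen after seeing the data gave 2887, 2084, 3593 and 2940 CPM where gate and cluster named the cell alike, and 2806 CPM for Ifitm3 in monocyte-like cells with at most 1 neutrophil marker.

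The ratio of Ifitm1 was 0.126 and 0.117 with the granule threshold 2-fold up and down, 0.137 with Cebpe, Lcn2 and Chil3 in place of Ltf, Camp and Ngp, and 0.0999 by cluster. That of Ifitm2 was 0.503 with the other genes and 0.424 by cluster, and that of Ifitm6 was 3.56 and 5.15 with the threshold up and down and 6.85 by cluster. The ratio of Ifitm3 was 0.909, 0.976 and 0.977 under the 3 other splits and turned to 1.06 by cluster, and the cause was not tested. Ifitm1, Ifitm3 and Ifitm6 kept their highest class of at least 50 cells under the alternatives run, and Ifitm2 was highest in type 2 dendritic-like cells without library 4 (1774 CPM) or library 5 (1709 CPM). No cluster took the name of 7 of the 25 classes, basophil-like and nonclassical monocyte-like cells among them, although unnamed clusters were led by genes of both.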
